A study of Mus musculus with 9 samples.

Results

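The MYC and MAX network is a family of transcription factors that pair through basic helix-loop-helix leucine zipper domains, and its mRNAs were followed in mouse prostate cancer cells treated with asporin (ASPN), a secreted protein of the tumor stroma. Its members were taken as the rows of the deposited gene counts whose gene name was one of 10 listed genes: Myc, Mycn, Mycl, Max, Mxd1, Mxd3, Mxd4, Mxi1, Mnt and Mlx. Of these genes, 9 were found among the 15384 protein-coding genes of the table, and Mycn was not analysed here. RNA sequencing (RNA-Seq) was performed on 9 libraries, with 3 biological replicates at each of 0, 12 and 24 hours. All libraries came from MyC-CaP, a single line derived from a prostate tumor of a mouse that carries a human MYC transgene under a prostate-specific promoter based on probasin. The cells were kept without serum and calcium for 6 to 12 hours before 100 ng/mL recombinant mouse ASPN was added, and the labels name ASPN as the treatment also for the time 0 libraries. No buffer-treated library of a later time was analysed here, so time with ASPN and time in the medium cannot be told apart.

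As background, MYC binds DNA as a dimer with MAX at E-boxes, most strongly at CACGTG, and recruits cofactors that raise transcription of genes for ribosome production, nucleotide synthesis and growth. The MXD proteins, MXI1 (also called MXD2) and MNT compete with MYC for MAX and for the same sites and bring SIN3 and HDAC corepressors. MLX pairs with MXD1, MXD4 and MNT, and also with MondoA and ChREBP, which sense glucose metabolites, so it links the MAX network with a parallel one. In prostate cancer, MYC is a common driver, and in MyC-CaP the human transgene is a source of MYC besides the mouse gene.

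The count of mouse Myc needs this limit beside it. The reads were aligned to the mouse genome alone, and fragments of the human transgene transcript that resemble the mouse sequence may be counted in the mouse Myc row. The deposited counts cannot separate them, so each value of Myc below is the count of the mouse row, and the share of the transgene in it was not tested.

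Total counts were 41881191 to 52993821 per library, so 3 counts correspond to 0.0566 to 0.0716 counts per 1000000 (CPM). Libraries of 24 hours stood apart from those of the other times in make-up. Mitochondrially encoded transcripts took 0.113% to 0.203% of their counts, against 2.60% to 2.85% at 0 and 12 hours. Median log2 fold changes at 24 hours against time 0 also ran from 0.17 for the shortest to -0.20 for the longest of 4 equal bins of transcript length. Values with a correction for length and GC content are given beside several results, and the part of the mitochondrial share was not tested. The labels describe the cells as epithelial-like prostate cancer cells. Of 5 luminal epithelial markers, Krt8 and Krt19 were expressed, while Epcam, Cdh1 and Krt18 were at or near 0. Prostate markers are not summed here. The summed level of the 5 luminal markers was between 105 and 132 CPM in time 0 libraries, between 122 and 129 CPM after 12 hours and between 161 and 188 CPM after 24 hours. Markers of basal cells, leukocytes and endothelium summed to less than 1 CPM in every library. The 3 fibroblast markers in the table summed to between 9.09 and 14.1 CPM, most of it Pdgfra.

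Promoter sequences show where the network's own binding motif lies in its genes. In RefSeq promoter windows on GRCm38.p6 (250 bases before to 50 bases after an annotated start), CACGTG was found in 4 of the 9 listed members that have an entry, namely Max, Mxd4, Mnt and Mlx. CACGTG reads the same on both strands, so a single search covers both. Windows of Mycn, Mycl, Mxd1, Mxd3 and Mxi1 held no CACGTG, and no window for Myc was in the sequence table. Counted by window, 4 of the 11 windows of members held the motif. Of all 32851 promoter windows, 7.15% held it, and 9.08% of the 15163 windows of genes that were counted did. The 4 windows with a match are printed from 250 bases before to 10 bases after the start, 5′ to 3′ on the strand of the gene, with the CACGTG in capitals, because 3 of these 4 genes had lower and the other had higher mRNA at 24 hours (values below). The searched windows are chr12:76962199-76962498 on the minus strand for Max, chr5:34187661-34187960 on the minus strand for Mxd4, chr11:74830674-74830973 on the plus strand for Mnt and chr11:101087040-101087339 on the plus strand for Mlx.
Max: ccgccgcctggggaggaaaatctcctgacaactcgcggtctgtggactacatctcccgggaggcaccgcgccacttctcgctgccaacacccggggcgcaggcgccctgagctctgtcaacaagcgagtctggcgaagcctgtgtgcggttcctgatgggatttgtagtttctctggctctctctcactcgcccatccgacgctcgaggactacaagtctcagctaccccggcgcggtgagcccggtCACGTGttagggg
Mxd4: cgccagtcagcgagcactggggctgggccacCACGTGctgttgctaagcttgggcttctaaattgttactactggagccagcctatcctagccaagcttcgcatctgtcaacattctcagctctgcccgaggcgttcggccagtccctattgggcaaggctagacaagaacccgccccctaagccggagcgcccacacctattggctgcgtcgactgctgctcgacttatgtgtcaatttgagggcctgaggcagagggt
Mnt: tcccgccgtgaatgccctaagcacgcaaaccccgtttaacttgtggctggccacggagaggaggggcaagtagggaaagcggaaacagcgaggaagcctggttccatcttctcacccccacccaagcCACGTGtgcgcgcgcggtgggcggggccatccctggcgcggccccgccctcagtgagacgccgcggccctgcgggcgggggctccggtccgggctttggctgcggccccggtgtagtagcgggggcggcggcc
Mlx: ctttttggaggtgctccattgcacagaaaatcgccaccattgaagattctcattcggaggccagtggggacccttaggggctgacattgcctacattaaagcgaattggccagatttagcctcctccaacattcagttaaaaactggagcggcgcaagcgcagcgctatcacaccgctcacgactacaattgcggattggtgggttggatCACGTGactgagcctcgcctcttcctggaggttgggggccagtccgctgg
The first base of the motif lay 3 bases before the start in Max, 40 in Mlx, 123 in Mnt and 219 in Mxd4. A match describes the letters of the window, and binding of MYC, MAX or any other factor was not measured.

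For the 8 members with enough counts, p-values came from the quasi-likelihood test of edgeR, fitted across all genes for each pair of times and adjusted by Benjamini-Hochberg. A gene was called where its adjusted p was 0.05 or less and it changed at least 1.5-fold. Mycl, a MYC paralog, had 0 counts in 8 libraries and 4 counts in 1 library of 24 hours and was not tested. Levels are given as CPM with TMM scaling over the 9 libraries, as mean ± SD of 3 libraries.

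After 12 hours, Myc was the only member past the adjusted p, and its increase was small. The other 7 tested members had log2 fold changes between -0.18 and -0.02, and none passed the test. By edgeR's test, as by DESeq2 and limma-voom, 0 of 8 members were called, where 1.60% of all 11410 tested genes were called and 0.0964% were called lower. With the adjusted p alone, the 1 member was Myc, against 10.3% of all genes. An unadjusted p under 0.05 was reached by 4 of 8 members and by 2437 of the 11410 tested genes. Libraries of the 2 times did not overlap for 6 of the 8 members, where 27.0% of all tested genes did not overlap.

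After 24 hours, Myc, Mnt and Mxd4 were called, all lower, and Max was lower by less than 1.5-fold. Mlx and Mxi1 were higher by less than 1.5-fold. Against time 0, 3 of 8 members were called, where 28.8% of 11444 tested genes were called and 16.8% were called lower. With the adjusted p alone, 7 of 8 members passed, 5 lower and 2 higher, beside 70.9% of all genes. Against 12 hours, the same 3 members were called lower, where 25.7% of 11394 genes were called and 15.3% called lower, and 6 members passed the adjusted p alone, beside 71.3%. The 24-hour libraries enter both of these comparisons. Libraries of the 2 times did not overlap for 7 of 8 members against time 0 and for 6 of 8 against 12 hours, with 73.9% of all genes in each case.

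**Figure D1:**
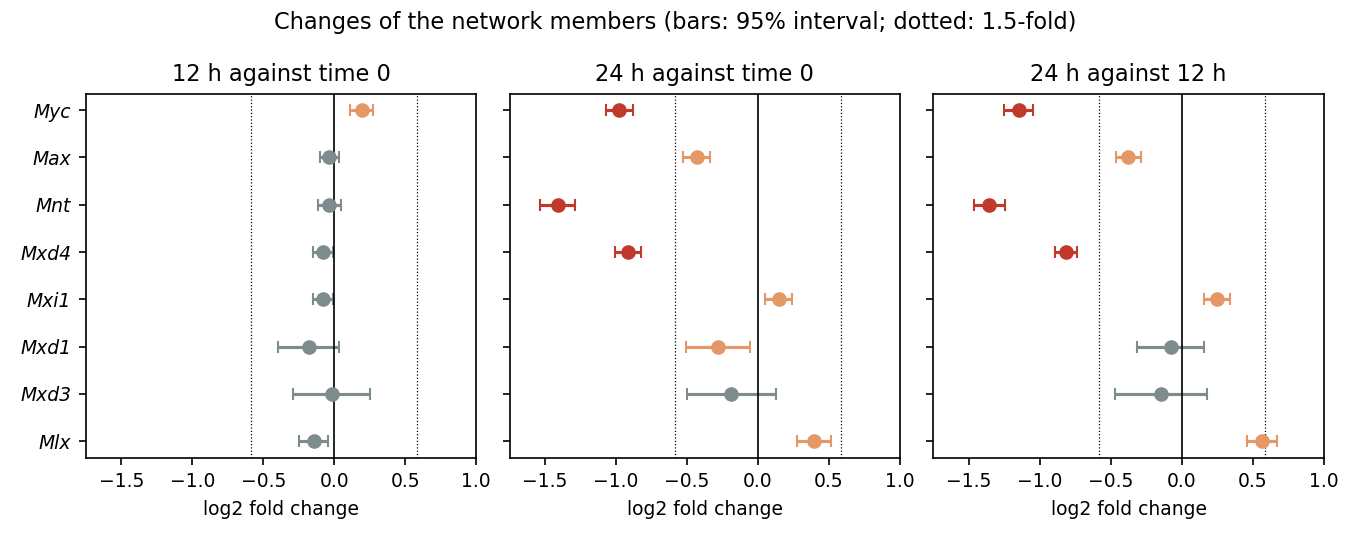
Log2 fold change (horizontal axis) of the 8 tested members (rows) in the 3 comparisons, as points with 95% intervals from edgeR's quasi-likelihood fit. Red marks called genes, orange an adjusted p of 0.05 or less with under 1.5-fold change, grey the rest. At 24 hours Myc, Mnt and Mxd4 lie left of the dotted 1.5-fold line, while at 12 hours every member lies between the lines.

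Myc (ENSMUSG00000022346.15, chr15:61985391-61990374 on GRCm38, plus strand) encodes the activating member of the network. Its level at time 0 was 80.4, 80.9 and 82.1 CPM in replicates 1 to 3. At 12 hours the libraries had 87.4, 95.3 and 94.8 CPM, and at 24 hours 41.4, 42.0 and 39.8 CPM. Every 12-hour library was above, and every 24-hour library below, all libraries of time 0. The increase at 12 hours was 0.19 in log2 fold change (SE 0.037, 95% interval 0.11 to 0.27, adjusted p = 0.00195 by the quasi-likelihood test of edgeR with Benjamini-Hochberg adjustment), or 1.14-fold. At 24 hours Myc was 1.97-fold lower than at time 0 (log2 fold change -0.98, SE 0.044, edgeR's adjusted p = 7.35e-10). Against 12 hours it was 2.22-fold lower (log2 fold change -1.15, SE 0.047, edgeR's adjusted p = 2.33e-10). Of all genes tested at 24 hours against time 0, 8.0% had a log2 fold change at or below that of Myc.

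Max (ENSMUSG00000059436.13, chr12:76937269-76962201, minus strand) encodes the shared partner without which MYC, MXD and MNT proteins bind DNA poorly. It had 88.7, 88.5 and 90.3 CPM at time 0, 86.1, 87.3 and 86.8 CPM at 12 hours and 62.8, 68.4 and 66.1 CPM at 24 hours. The 24-hour libraries lay below all 6 others. The difference at 12 hours was -0.04 in log2 fold change (95% interval -0.10 to 0.03, edgeR's adjusted p = 0.583). At 24 hours Max fell by 0.43 on the log2 scale against time 0 (SE 0.045, edgeR's adjusted p = 1.3e-06) and by 0.38 against 12 hours, both short of 1.5-fold. With scaling by total counts alone, the log2 fold changes were -0.66 and -0.60, which passed that threshold.

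Mnt (ENSMUSG00000000282.12, chr11:74830920-74845725, plus strand), a broadly expressed repressor that pairs with MAX and MLX, was called lower at 24 hours. It was at 89.6, 83.6 and 82.9 CPM at time 0, at 81.1, 82.6 and 85.5 CPM at 12 hours and at 30.9, 34.3 and 30.6 CPM at 24 hours. The libraries of 0 and 12 hours overlapped, and those of 24 hours were all below them. At 24 hours Mnt was 2.66-fold lower than at time 0 (log2 fold change -1.41, SE 0.056, edgeR's adjusted p = 2.6e-10), and 3.10% of tested genes had a log2 fold change at or below it. Against 12 hours it was 2.56-fold lower (log2 fold change -1.36, edgeR's adjusted p = 1.43e-10). With the length and GC correction it was at -0.97 against time 0, level with Myc (-0.96), and at -0.93 against 12 hours, where Myc was at -1.17. Its 12-hour difference was -0.03 (95% interval -0.12 to 0.05).

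Mxd4 (ENSMUSG00000037235.13, chr5:34173883-34187720, minus strand), an MXD repressor known from differentiating cells, was also called lower at 24 hours. Its libraries held 204, 195 and 195 CPM at time 0, 183, 188 and 189 CPM at 12 hours and 101, 108 and 104 CPM at 24 hours. All 12-hour libraries were slightly below those of time 0, without passing the test (log2 fold change -0.08, edgeR's adjusted p = 0.16), except with total counts (-0.10, edgeR's adjusted p = 0.0393). At 24 hours Mxd4 was 1.89-fold lower than at time 0 (log2 fold change -0.92, SE 0.043, edgeR's adjusted p = 8.73e-10) and 1.76-fold lower than at 12 hours (log2 fold change -0.82, edgeR's adjusted p = 5.71e-10). Offsets for GC content and transcript length (the length and GC correction) left the second value at -0.55, under 1.5-fold, and ended that call. The first was -0.63 and was still called. Exons of Mxd4 overlap an annotated antisense gene over 514 bases, and whether the counting used strand is not stated in the sources used here.

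**Figure D2:**
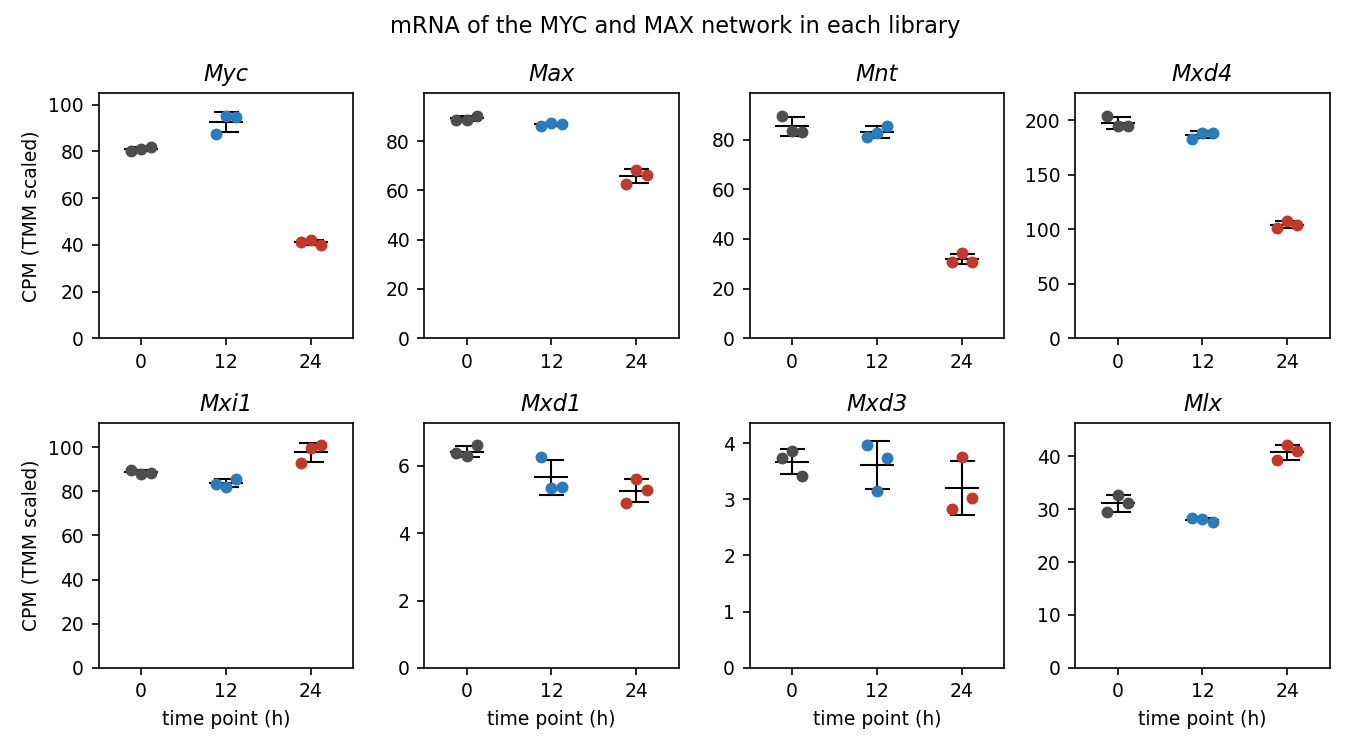
CPM with TMM scaling (vertical axis, starting at 0) of 8 members in each of the 9 libraries, by time point (horizontal axis). Points are libraries, and black bars show the mean ± SD of 3. Myc, Mnt, Mxd4 and Max sit lower at 24 hours than in any library of 0 or 12 hours, while Mlx and Mxi1 sit higher.

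Mxi1 (ENSMUSG00000025025.14, chr19:53310518-53375810, plus strand) encodes a repressor induced by hypoxia in other cells, and its mRNA did not fall with those of Mnt and Mxd4. It had 89.8, 87.8 and 88.4 CPM at time 0, 83.5, 81.9 and 85.7 CPM at 12 hours and 92.9, 99.5 and 101 CPM at 24 hours. The 12-hour libraries were below and the 24-hour libraries above all libraries of time 0. The 24-hour difference was 0.15 in log2 fold change against time 0 (SE 0.044, edgeR's adjusted p = 0.00905) and 0.25 against 12 hours (edgeR's adjusted p = 0.000122). With scaling by total counts the first became -0.08 (edgeR's adjusted p = 0.126) and the second 0.02, so its direction rests on the scaling. Against 12 hours its 95% interval of 0.16 to 0.34 lay wholly above those of Mnt (-1.47 to -1.25) and Mxd4 (-0.90 to -0.74).

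Mxd1 (ENSMUSG00000001156.9, chr6:86647042-86669161, minus strand) and Mxd3 (ENSMUSG00000021485.14, chr13:55325168-55329823, minus strand), the former linked with differentiation and the latter with S phase, were expressed at a low level. Mxd1 had 6.38, 6.28 and 6.61 CPM at time 0, 6.26, 5.34 and 5.37 CPM at 12 hours and 4.91, 5.61 and 5.28 CPM at 24 hours. Its log2 fold change at 24 hours against time 0 was -0.28 (SE 0.10, edgeR's adjusted p = 0.0278). That p rose above 0.05 when any of 5 of the 6 libraries was left out (up to 0.103 without replicate 3 of time 0) and was 0.0578 in DESeq2. After the length and GC correction the value was -0.05 (edgeR's adjusted p = 0.705), and with total counts it was -0.50 (edgeR's adjusted p = 0.00082). Against 12 hours it was -0.08, and -0.30 with total counts, where it passed (edgeR's adjusted p = 0.0254). Mxd3 had 3.74, 3.86 and 3.42 CPM at time 0, 3.96, 3.14 and 3.73 CPM at 12 hours and 2.83, 3.75 and 3.02 CPM at 24 hours. Its libraries overlapped in every comparison, and its log2 fold change at 24 hours was -0.19 (95% interval -0.50 to 0.13). With total counts, which lowered all members, it passed the test at -0.41 against time 0 (edgeR's adjusted p = 0.0233) and at -0.37 against 12 hours (0.0423). With the length and GC correction both values were -0.33, without passing the test (edgeR's adjusted p = 0.056 and 0.0616). Exons of Mxd3 overlap those of Prelid1 on the opposite strand over 105 bases.

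Mlx (ENSMUSG00000017801.15, chr11:101087277-101092207, plus strand) rose at 24 hours. It had 29.5, 32.6 and 31.2 CPM at time 0, 28.3, 28.2 and 27.6 CPM at 12 hours and 39.3, 42.1 and 41.0 CPM at 24 hours. The 24-hour libraries were above all others, and the 12-hour libraries were below those of time 0 without passing the test (log2 fold change -0.14, edgeR's adjusted p = 0.0741). At 24 hours Mlx was 1.32-fold higher than at time 0 (log2 fold change 0.40, SE 0.056, edgeR's adjusted p = 2.52e-05). Against 12 hours it was 1.48-fold higher (log2 fold change 0.56, SE 0.048, edgeR's adjusted p = 2.33e-07), just short of a call. Without replicate 1 of 24 hours, or with upper-quartile scaling, the latter was 0.59 and was called. It was not called with the length and GC correction (0.45) or with total counts (0.34). Against time 0 the values were 0.31 with that correction and 0.17 with total counts. Exons of Mlx overlap those of Psmc3ip on the opposite strand over 385 bases.

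The remaining overlap among members was of Mxi1 with Gm10197 on the opposite strand, over 194 bases. A lower CPM in a bulk sample also cannot tell fewer expressing cells from less mRNA per cell.

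Levels of different members were compared per length, as CPM per kb of all annotated exons of a gene. At time 0 the order was Myc (29.8), Max (24.8), Mxd4 (23.3), Mnt (18.4), Mlx (15.6), Mxi1 (13.0), Mxd3 (1.55) and Mxd1 (0.908 CPM per kb). The order at 12 hours was the same, with Myc at 34.0 and Max at 24.1 CPM per kb. No neighbours in the order overlapped between libraries at either time. At 24 hours Mlx came first with 20.4 CPM per kb, before Max (18.3), Myc (15.1), Mxi1 (14.3), Mxd4 (12.3), Mnt (6.90), Mxd3 (1.35) and Mxd1 (0.745). Here the libraries of Myc (14.6 to 15.5) and of Mxi1 (13.6 to 14.8) overlapped, so these neighbours did not differ beyond their spread, and no other neighbours overlapped. This order depends on the length chosen. Per kb of the longest coding transcript, an alternative chosen after seeing the data, Mxd4 came first at time 0 (51.1 CPM per kb), before Max (45.9) and Myc (34.7). At 24 hours Max came first (33.9), before Mxd4 (27.0), Mlx (20.8), Mxi1 (19.4) and Myc (17.6 CPM per kb).

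The summed mRNA of the MAX-binding repressors (Mnt, Mxd1, Mxd3, Mxd4 and Mxi1) was set against that of Myc, per kb and within each library, where the scaling between libraries drops out. A shift with transcript length or GC content does not drop out, and these ratios were not corrected for it. The ratio was between 1.86 and 2.00 in the time 0 libraries, between 1.54 and 1.67 in those of 12 hours and between 2.24 and 2.44 in those of 24 hours. The 3 times did not overlap, with 12 hours lowest and 24 hours highest. Max to Myc followed the same order, at 0.826 to 0.834, then 0.692 to 0.744, then 1.15 to 1.26. Within the repressors, the share of Mxi1 was 22.2% to 23.1% at 0 and 12 hours and 39.3% to 41.4% at 24 hours. The share of Mnt was 31.9% to 33.2% and then 18.5% to 20.0%, and that of Mxd4 was 40.0% to 41.0% and then 34.3% to 34.9%. Per kb of the longest coding transcript, the share of Mxi1 likewise was higher at 24 hours (33.4% to 35.2%, from 18.8% to 19.5% before), but Mxd4 had the highest share at all times (47.2% to 47.9% at 24 hours). The ratio of the repressors to Myc was then 2.56 to 2.74, 2.12 to 2.30 and 3.08 to 3.35 at the 3 times, so 12 hours was lowest and 24 hours highest with either length. These are ratios of mRNA, and no protein of the network was measured here.

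**Figure D3:**
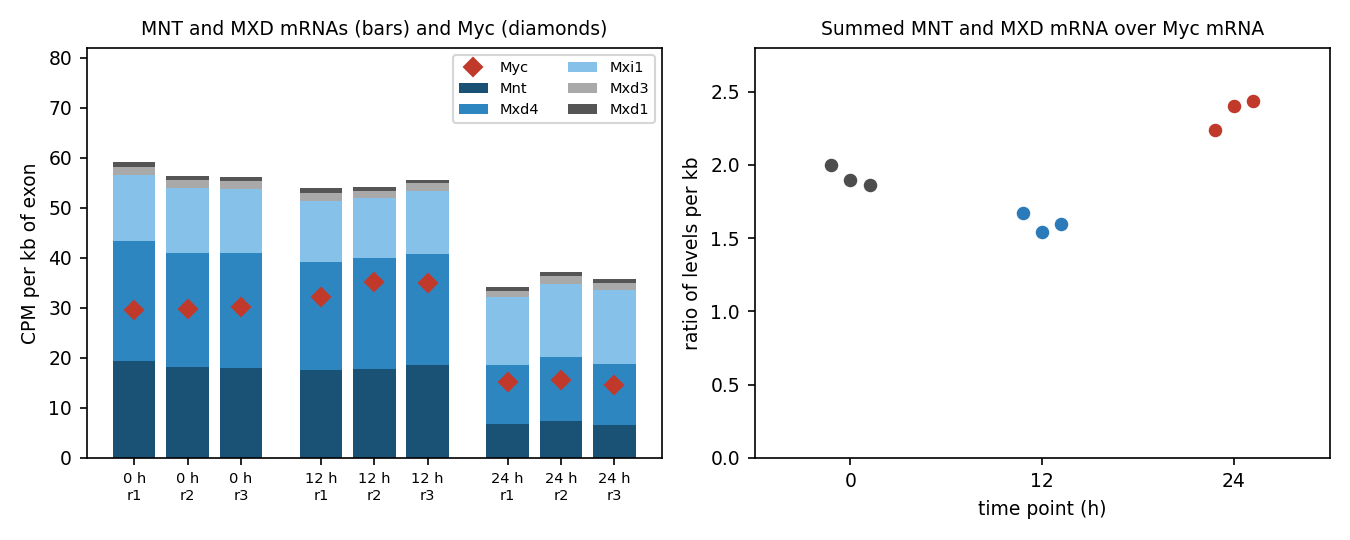
Left, stacked levels of the 5 repressors (CPM per kb of exon) and the level of Myc (diamonds) in each of 9 libraries (r1 to r3 are the replicates). Right, the ratio of the summed repressors to Myc in each library by time point, at 1.54 to 1.67 at 12 hours and 2.24 to 2.44 at 24 hours.

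Scaling by total counts lowered the 24-hour values of all 8 tested members by a like amount. It moved the median of all tested genes from -0.02 to -0.24 and the split of calls from 1374 higher and 1924 lower to 698 and 3008. Under it Myc was at -1.20, Mnt at -1.63 and Mxd4 at -1.14. The length and GC correction left Myc at -0.96 and moved Mnt to -0.97, and both were still called.

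**Figure D4:**
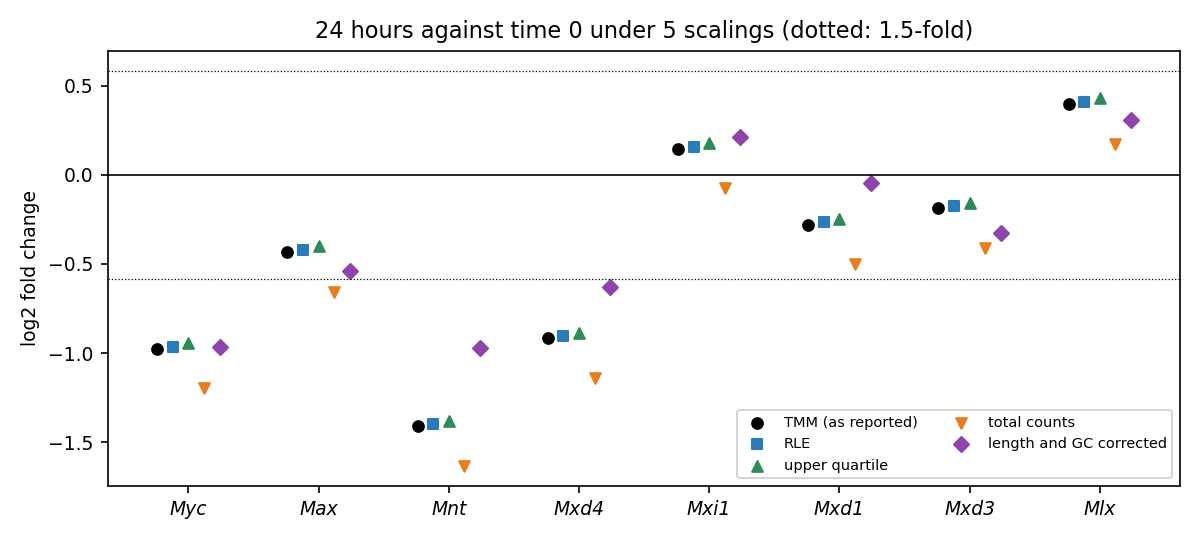
Log2 fold change at 24 hours against time 0 (vertical axis) of 8 members under TMM, RLE, upper-quartile and total-count scaling and with a length and GC correction. Myc, Mnt and Mxd4 lie below the lower dotted line (1.5-fold) under every setting shown, and Mxi1 crosses 0 with total counts.

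Genes around the network were taken from 8 lists, and 0 genes of any list were called at 12 hours by edgeR's test, DESeq2 or limma-voom, with 0 to 7 genes of a list at an unadjusted p under 0.05. Of all 11410 tested genes, 2437 had such a p. With the adjusted p alone, 4 of the 40 MYC-induced genes were lower at 12 hours, namely Srm, Odc1, Cad and Nolc1, which serve polyamine synthesis, pyrimidine synthesis and the nucleolus, at -0.19 to -0.11 in log2 fold change, and 0 were higher. That share of 10% is close to the 10.3% of all tested genes. Of the 9 tested MYC-repressed genes, the antiproliferative genes Btg1 (0.33) and Btg2 (0.54) and the cell cycle inhibitor gene Cdkn2b (0.50) were higher, and Cebpa, of cell differentiation, was lower (-0.28). The corepressor gene Sin3a was higher (0.19) and Rbbp7 lower (-0.17), and the androgen target Fkbp5 was lower (-0.23), while no gene of the other lists passed. These genes were named after their values were seen.

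At 24 hours against time 0, both tested partners of the extended network were called lower, where 16.8% of all tested genes were. Mga, which pairs with MAX, had a log2 fold change of -0.97 (edgeR's adjusted p = 4.01e-07), and Mlxip, which encodes the MLX partner MondoA, had -0.60. After the length and GC correction Mlxip was at -0.13 and no longer called, and 1 of these 2 partners was called with upper-quartile scaling or without replicate 1 of time 0. Of 3 tested MLX targets, Txnip, an inhibitor of glucose uptake, was called lower (-1.02, edgeR's adjusted p = 6.63e-08), in the direction of Mlxip and opposite to Mlx. Against 12 hours these 3 genes were also called lower, at -0.95, -0.62 and -0.97, but with the length and GC correction Mlxip was at -0.16 and not called.

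Of 16 MYC cofactors, 5 were called lower and 1 higher at 24 hours (37.5%, where 28.8% of all genes were called), with a median of -0.12. Ep300 (-1.23) and Crebbp (-1.02), which encode acetyltransferases, were the lowest, and Smarcb1 (0.67), of the SWI/SNF complex, was higher. With the length and GC correction 2 cofactors were called, Ep300 at -0.86 and Crebbp at -0.59, and their transcripts were 9566 and 10820 bases long. Of 15 corepressor genes, 1 was called higher and 1 lower (13.3%, beside 28.8% of all genes), with a median of 0.01. The gene called higher was Sap30 of the SIN3 complex (0.98). Of 17 genes for MYC turnover, 3 were called, 1 higher and 2 lower (17.6%, beside 28.8% of all genes). Fbxw7, the ubiquitin ligase subunit that marks MYC for degradation, was 3.86-fold lower (log2 fold change -1.95, SE 0.051, edgeR's adjusted p = 6.9e-12). Usp36, a deubiquitinase that opposes it in the nucleolus, was lower (-0.95), and Cip2a, an inhibitor of the phosphatase PP2A that stabilizes MYC, was higher (0.92). With the length and GC correction Fbxw7 was at -1.90, and Usp36 at -0.43 was not called.

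The 40 genes known to be induced by MYC had a median log2 fold change of -0.09 at 24 hours, where the median of all tested genes was -0.02. Among them, 5 were called lower and 3 higher (20.0%, beside 28.8% of all genes). Cad (-0.80), of pyrimidine synthesis, and Grwd1 (-0.77), a ribosome assembly factor, were the lowest of those named by the rule, and Npm1 (0.91), a nucleolar chaperone, and Eif4a1 (0.65), a translation initiation helicase, the highest. Npm1 and Eif4a1 have processed copies in the mouse genome, so their counts are less certain. The balance of these calls depended on the scaling, with 4 lower and 5 higher under RLE or upper-quartile factors and in DESeq2, and 13 lower and 1 higher with total counts, while the length and GC correction left Cad at -0.19. Of 9 tested genes known to be repressed by MYC, 3 were called higher and 1 lower, with a median of 0.30. That median was 0.16 with the length and GC correction and 0.08 with total counts, under which 2 were called higher and 1 lower. Cdkn1a, which encodes the cell cycle inhibitor p21, was 3.08-fold higher (log2 fold change 1.62, edgeR's adjusted p = 6.61e-09). Gadd45a, a stress response gene, was 2.83-fold higher, and Cebpa was 2.81-fold lower (-1.49). Against 12 hours the counts called higher and lower were 1 and 5 of the cofactors, 1 and 2 of the turnover genes, 4 and 4 of the MYC-induced and 2 and 1 of the MYC-repressed genes, where 10.4% of all tested genes were called higher and 15.3% lower. In this comparison the length and GC correction left 0 cofactors called higher and 1 lower, 1 and 1 of the turnover genes and 2 and 3 of the MYC-induced genes, and with total counts 1 MYC-induced gene was called higher and 8 lower. A list's median is read here beside that of all genes and was not tested against it.

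Androgen-induced genes were listed because the transgene promoter is based on probasin. Fkbp5 was 1.62-fold lower at 24 hours than at time 0 (log2 fold change -0.70, SE 0.048, edgeR's adjusted p = 2.7e-08), and at -0.51 it was not called after the length and GC correction. Pbsn, which encodes probasin itself, and Tmprss2 had too few counts to be tested. What this means for the transgene was not tested, since its transcript has no row of its own.

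**Figure D5:**
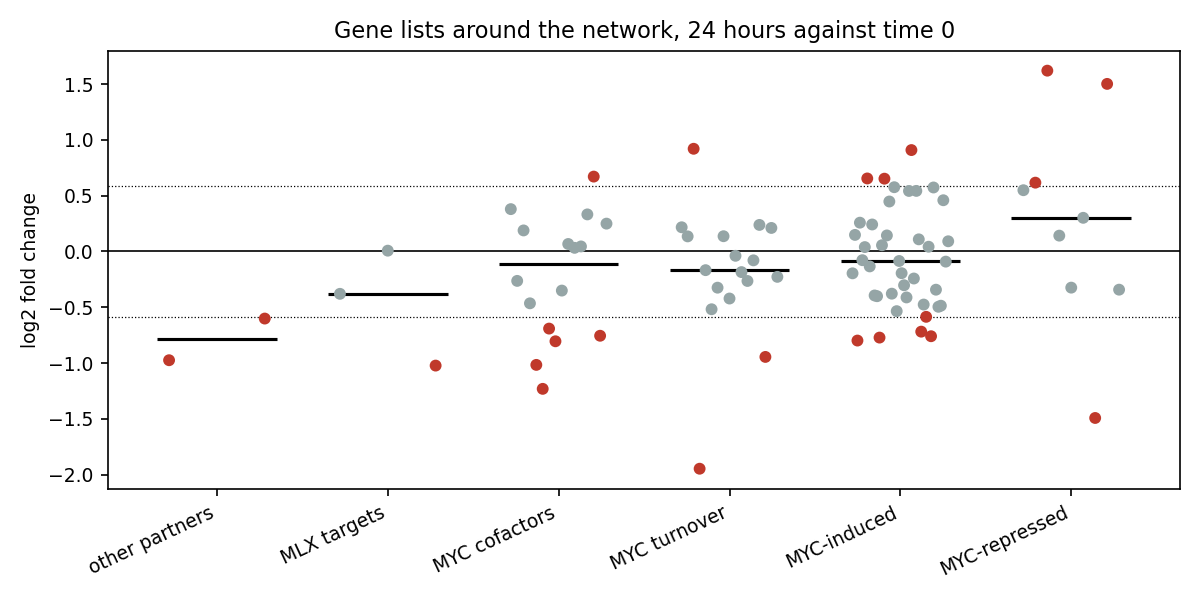
Log2 fold change at 24 hours against time 0 (vertical axis) of each tested gene in 6 lists around the network (horizontal axis); red points are called, grey points are not, and black lines are list medians. Of the MYC-induced genes, 3 red points lie above 0 and 5 below, and of the MYC-repressed genes, 3 above and 1 below.

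The genes most like the called members were found by Pearson's correlation of log2 CPM over the 9 libraries among 11270 genes. For Myc they were G3bp1 (r = 0.998), Zfp217 (0.998) and Trib1 (0.997), the last on the chromosome of Myc, at chr15:59648350-59657099. For Mxd4 they were Aplp2, Mlec and Tnfrsf21, and for Mnt they were Ski, Cep97 and Foxk1, each with r of 0.999 or more after rounding. An r above 0.98 was reached by 326 genes with Myc, 972 with Mxd4 and 974 with Mnt. The points share only 3 times, so any gene with the same step at 24 hours has a high r, and these names are a description.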

How the data were processed

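Gene counts of 9 RNA-Seq libraries of MyC-CaP cells were used, 3 for each of 0, 12 and 24 hours, grouped by the sample labels. Per the labels and the study's methods, the authors prepared TruSeq mRNA libraries, trimmed paired-end reads with Cutadapt, aligned them with STAR to GRCm38.p6 and counted reads per gene with featureCounts. The deposited values are raw counts of 15384 protein-coding genes, not normalized. The strand setting and the rule that chose these genes are not given in the sources used here. Counts were 41881191 to 52993821 per library. Mxd1 and Mxd3 rest on 116 to 360 counts each, and the other tested members on at least 1209.

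Each pair of times was fitted on its 6 libraries in R 4.3.3 with edgeR 4.0.16 (filterByExpr, TMM, quasi-likelihood test without a block) over the whole table, with Benjamini-Hochberg adjustment. The study's own tool, DESeq2, was an alternative (DESeq2 1.42.0), as were limma-voom (limma 3.58.1), other scaling factors and filters, a single fit of all libraries, the replicate number as a block, offsets for transcript length and GC content (loess per library, span 0.3), other thresholds and leaving out each library in turn. The longest coding transcript in place of the exon union for levels per kb was added after seeing the data. Exon lengths and overlaps come from GENCODE release M21 on GRCm38, in place of M24 used for the counts, and promoter sequences from RefSeq. The calculations were tested on simulated data.

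The members, the gene lists and the alternatives were chosen with earlier results of these data known. All members are named, and a few genes of the lists are not reported here. From each list, the 2 highest and 2 lowest called genes are named, or all called genes of a list of 5 or fewer, and the 3 genes most correlated with Myc and each called member. Replicates are labelled as biological, and whether they came from separate cultures beyond separate wells is not stated, so p-values measure the spread between these libraries.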

Additional observations from a re-analysis of the deposited data

How the results depend on the processing

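Myc, Mnt and Mxd4 were called lower at 24 hours against time 0 under all alternatives, and Myc and Mnt also against 12 hours. With the adjusted p alone, 1, 7 and 6 members passed (12 hours against time 0, 24 hours against time 0, 24 against 12 hours), and 1178, 8119 and 8124 of all genes. With edgeR's glmTreat at 1.5-fold, 88, 2101 and 1768 genes were called. Leaving out single libraries gave 0 members at 12 hours, 3 at 24 hours and 3 to 4 for 24 against 12 hours, and 148 to 198, 3248 to 3312 and 2871 to 3003 genes. Of the MYC-induced genes, 4, 32 and 32 passed the adjusted p alone and 5 and 5 passed glmTreat at 24 hours, 14 were called with total counts against time 0, and 5 were called against 12 hours with the length and GC correction, with or without the block. Directions turned only for small differences. Mxi1 at 24 hours against time 0 was -0.076 with total counts, Mxd1 for 24 against 12 hours was 0.14 with the length and GC correction with or without the block, and Mxd3 at 12 hours was 0.0010 with that correction. With single libraries left out at 12 hours, Mnt ran from -0.057 to 0.0035 (above 0 without replicate 1 of time 0) and Mxd3 from -0.093 to 0.073 (above 0 without replicate 2 of time 0 or of 12 hours). Mlx at 12 hours passed the adjusted p (0.0224) without replicate 1 of time 0. With total counts Mxd3 at 24 hours, Mxd1 against 12 hours and Mxd4 at 12 hours also passed the adjusted p, and Mxi1 no longer did. The cause of these shifts was not tested.

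Same-numbered libraries did not deviate together by this measure (mean correlations -0.02, -0.06 and 0.03, and 0 pairs above 0.1). Whether they shared a plate or day cannot be told from this. With the replicate number as a block, 0, 3 and 3 members were called, Myc at 24 hours against time 0 was at -0.98 and Mnt at -1.41, and the block changed no call of a member.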
